A study of Mus musculus with 9 samples.

Results

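This set of squamous differentiation genes, 9 of the 51912 genes in the count table, were followed across 9 libraries of mouse mammary tumour organoids: Sprr1a, Sprr1b, Ivl, Evpl, Tgm1, Dsg1a, Sbsn, Krtdap and Lypd3. They were chosen by their measured counts, which differ strongly between libraries of both genotypes, so their spread is a description here and carries no test. Organoids, small pieces of tumour epithelium, came from FVB/NJ mice of the genotype MMTV::PyMT; (R26)pCA::mT/mG. MMTV::PyMT drives a viral oncogene in mammary epithelium, and mT/mG is a fluorescent reporter of Cre activity. The 4 WT libraries were Cdh1+/+ and the 5 E-cad-KO libraries carried floxed alleles of Cdh1, the gene of the adhesion protein E-cadherin. In both groups the fresh organoids received adeno-Cre, an adenovirus that delivers Cre recombinase, overnight and then grew for 48 h in collagen I with b-FGF2. Adeno-Cre was therefore also given to the WT organoids, it acts only in the cells it enters, and the RNA is that of whole frozen gels. Since no label ties a sample to an animal, p-values here reflect only how far samples of a group lie apart, which may be technical. In such bulk RNA, fewer cells of a type and less RNA per cell cannot be told apart.

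Squamous epithelia such as epidermis renew from a basal layer whose daughter cells move outward and cornify. During cornification, transglutaminases crosslink precursor proteins under the plasma membrane into the cornified envelope, while desmosomes hold the flattened cells together. Mammary epithelium does not normally cornify, but areas of squamous differentiation are known from mammary tumours.

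The roles of the 9 genes follow that sequence. Sprr1a and Sprr1b encode small proline-rich proteins and Ivl encodes involucrin, all substrates that are crosslinked into the envelope. Evpl encodes envoplakin, a plakin that links the envelope to keratin filaments and desmosomes. Tgm1 encodes transglutaminase 1, the membrane-bound crosslinking enzyme. Dsg1a encodes a desmoglein, a desmosomal cadherin of upper epidermal layers. Sbsn (suprabasin) and Krtdap (keratinocyte differentiation-associated protein) encode secreted proteins of suprabasal keratinocytes, and Lypd3 (C4.4A) encodes a GPI-anchored surface protein of the same layers.

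All 9 are protein-coding genes in GENCODE M21 on GRCm38, and several are neighbours. Sprr1b (chr3:92436809-92438789), Sprr1a (chr3:92483952-92485895) and Ivl (chr3:92570902-92573735) lie on the minus strand of the epidermal differentiation complex, with gaps of 45.2 kb and 85.0 kb. Sbsn (chr7:30751471-30756134) and Krtdap (chr7:30787896-30791097) lie on the plus strand with Dmkn, the gene of the secreted protein dermokine, between them, 7.62 kb from Sbsn and 6.83 kb from Krtdap. Lypd3 (chr7:24636550-24641118) is on the same chromosome, 6110 kb from Sbsn. Tgm1 (chr14:55700009-55713926, minus strand), Evpl (chr11:116220559-116238077, minus strand) and Dsg1a stand on other chromosomes. Exons of Tgm1 overlap Gm49067 and exons of Lypd3 overlap Gm26550, both on the other strand, and exons of Sbsn overlap Tmem147os on the same strand. Whether counting used the strand is not given in the sources used here, so reads of these pairs may be shared. Of the 50-base stretches in the annotated transcripts of Dsg1a, 35% also occur in Dsg1b or Dsg1c, which makes its counts the least certain of the 9. The share was 6.96% for Sbsn (all with Tmem147os), 0.482% for Ivl and 0 for the other 6.

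Promoters are shown for reference, and whether their letters relate to how the genes vary across libraries was not tested. The RefSeq table on GRCm38.p6 matched 7 of the 9 genes with 8 promoters (Tgm1 has 2 starts). Dsg1a and Evpl were not matched. Each promoter was searched on both strands from 250 bases before to 50 bases after the start. The 5 genes that hold the AP-1 letters TGANTCA are printed from 160 bases before the start to the first transcribed base, 5′ to 3′ on the gene's strand. They are Sprr1a (chr3:92485881-92486041, minus strand), Sprr1b (chr3:92438779-92438939, minus), Ivl (chr3:92573735-92573895, minus), Sbsn (chr7:30751311-30751471, plus) and Krtdap (chr7:30787745-30787905, plus). Capitals mark TGANTCA and the TATA box letters TATAAA.
Sprr1a: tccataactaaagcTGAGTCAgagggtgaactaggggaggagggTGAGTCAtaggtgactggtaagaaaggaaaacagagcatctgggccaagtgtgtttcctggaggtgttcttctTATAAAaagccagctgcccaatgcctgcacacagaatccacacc
Sprr1b: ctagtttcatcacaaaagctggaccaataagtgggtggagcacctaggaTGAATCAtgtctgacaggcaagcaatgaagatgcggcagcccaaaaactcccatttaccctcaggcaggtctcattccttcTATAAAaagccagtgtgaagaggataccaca
Ivl: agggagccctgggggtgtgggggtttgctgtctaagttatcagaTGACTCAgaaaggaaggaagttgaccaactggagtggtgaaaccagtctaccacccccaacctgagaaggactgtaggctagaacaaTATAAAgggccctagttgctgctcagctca
Sbsn: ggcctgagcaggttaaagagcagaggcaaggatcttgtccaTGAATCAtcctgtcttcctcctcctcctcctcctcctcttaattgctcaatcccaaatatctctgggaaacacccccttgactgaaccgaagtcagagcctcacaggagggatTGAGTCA
Krtdap: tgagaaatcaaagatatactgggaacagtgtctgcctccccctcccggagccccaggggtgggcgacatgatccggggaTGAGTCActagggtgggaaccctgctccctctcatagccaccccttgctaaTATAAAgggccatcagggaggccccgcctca

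Counting the last base before the start as -1, the AP-1 letters began at -146 and -116 in Sprr1a, -111 in Sprr1b, -116 in Ivl, -119 and -6 in Sbsn, and -81 in Krtdap. They were present in 5 of the 7 matched genes and in 7.81% of all 32851 promoters of this length. TATAAA was present in Sprr1a, Sprr1b, Ivl and Krtdap, 4 of 7, against 13.6% of all promoters, and began at -43 in Sprr1a and at -30, -29 and -30 in the others. The KLF letters CACCC were in all 7 genes and in 57.5% of all promoters, and in Sprr1a one copy overlaps an AP-1 match. C/EBP letters TTNNGNAA were in 5 of 7 genes and 40.7% of promoters. GRHL letters AACCNGTT (2.09% of promoters) and ETS letters CCGGAAG (8.86%) were in 0 of the 7. Counted by promoter, 5 of the 8 held the AP-1 letters, 4 TATAAA, 8 CACCC and 5 the C/EBP letters. Tgm1 and Lypd3 held neither the AP-1 letters nor TATAAA. A match describes letters only, and the chosen windows do not cover enhancers.

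Library totals ran from 44890302 to 64763645 counts, and 1 CPM, the unit of expression here (counts scaled by sequencing depth and library composition), was 44.2 counts in the smallest library. Cdh1 measured 246, 150, 201 and 159 CPM in WT 1 to 4 and 86.5, 118, 85.2, 87.3 and 79.1 CPM in E-cad-KO 1 to 5, so the groups did not overlap. Its log2 fold change, E-cad-KO against WT, was -1.05 ± 0.16 (SE, edgeR quasi-likelihood adjusted p = 0.0275). Transcripts with exons outside the deleted part are still counted. In the same test 244 of 17289 genes were called at an adjusted p under 0.05, 1.41% (0.908% or 157 genes higher and 0.503% or 87 genes lower in E-cad-KO). With upper-quartile scaling the 274 calls split into 123 higher and 151 lower. Of the mammary lineage markers, the summed luminal list (14 genes) was between 5752 and 7706 CPM in every library, and the summed basal and myoepithelial list (11 genes) between 2434 and 11440 CPM.

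The ranges of the 9 squamous genes ran from 2.19-fold (Ivl) to 75.5-fold (Krtdap) within WT. Within E-cad-KO they ran from 1.90-fold (Tgm1) to 13.5-fold (Sprr1b). The same libraries were high or low for nearly all of the 9 genes. WT 1 was the highest library for 8 genes, and E-cad-KO 2 and E-cad-KO 3 were each among the highest 3 for 8 genes. WT 4 was among the lowest 3 for 8 genes, and E-cad-KO 1 and E-cad-KO 5 for 7 genes each. None of the 9 differed between genotypes in edgeR's quasi-likelihood test (0 of 9 called, against 1.41% of all tested genes), and 1 of 9, Ivl, had an unadjusted p under 0.05, against 16.7% of all tested genes. DESeq2 and limma-voom also called 0 of the 9, against 7.8% and 2.96% of all genes (4.73% and 1.72% higher in E-cad-KO). All 9 gene ranges overlapped between the groups, whereas 8.11% of all tested genes had groups that did not overlap.

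**Figure D1:**
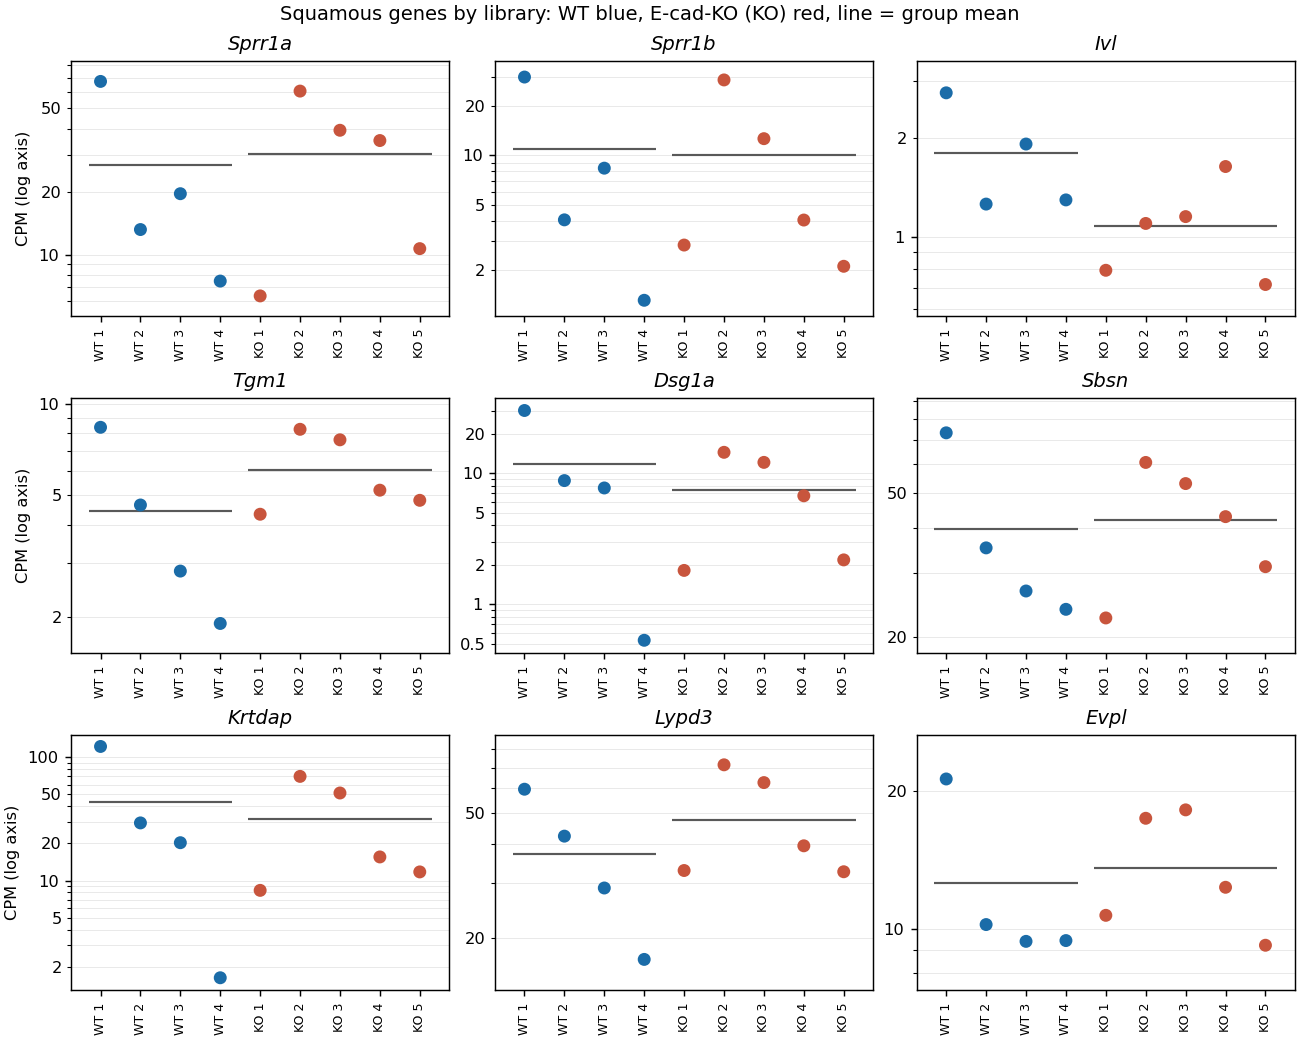
Expression of each of the 9 squamous genes in CPM on a log axis, with 1 point per library (WT blue, n = 4, E-cad-KO red, n = 5) and a line at each group's mean. WT 1, E-cad-KO 2 and E-cad-KO 3 sit high in most panels, WT 4, E-cad-KO 1 and E-cad-KO 5 sit low, and the groups overlap in all 9.

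The envelope precursors came first in the pathway and varied most in the pair of small proline-rich genes. Sprr1a (ENSMUSG00000050359) measured 67.1, 13.2, 19.6 and 7.5 CPM in WT 1 to 4 and 6.37, 60.3, 39.3, 35.1 and 10.7 CPM in E-cad-KO 1 to 5. The high libraries were WT 1 and E-cad-KO 2, 3 and 4, and the lowest was an E-cad-KO library. Group means were 26.8 ± 27.3 CPM (SD, n = 4) in WT and 30.4 ± 22.1 CPM (SD, n = 5) in E-cad-KO. The log2 fold change was 0.18 (95% interval -1.61 to 1.96, edgeR adjusted p = 0.945).

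Its neighbour Sprr1b (ENSMUSG00000048455) measured 29.8, 4.05, 8.33 and 1.31 CPM in WT and 2.85, 28.6, 12.6, 4.04 and 2.11 CPM in E-cad-KO, in the same library order. Again WT 1 and E-cad-KO 2 were far above the rest, at nearly the same level, and WT 4 was lowest. Between genotypes the log2 fold change was -0.12 (95% interval -2.40 to 2.17, edgeR adjusted p = 0.973). Its sign turned positive when WT 1 was left out (1.14), alone or together with WT 4 (0.70). It also turned when any 1 of the E-cad-KO libraries 1 (0.14), 4 (0.09) and 5 (0.16) was left out. The 2 genes had r = 0.90 and rho = 0.90 across the 9 libraries.

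Ivl (ENSMUSG00000049128) was the lowest of the 9 in counts, with 45 to 162 counts per library. It measured 2.75, 1.26, 1.92 and 1.30 CPM in WT and 0.790, 1.10, 1.15, 1.64 and 0.715 CPM in E-cad-KO. The 2 lowest libraries were E-cad-KO 5 and E-cad-KO 1, and E-cad-KO 4 lay above WT 2 and WT 4, so the groups overlapped. The log2 fold change was -0.75 (95% interval -1.44 to -0.05, unadjusted p = 0.0385, edgeR adjusted p = 0.265), negative in every one of the 16 alternative settings, where the adjusted p ran from 0.15 to 0.532.

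Evpl (ENSMUSG00000034282) had the narrowest range. It measured 21.2, 10.2, 9.40 and 9.44 CPM in WT and 10.7, 17.4, 18.2, 12.3 and 9.22 CPM in E-cad-KO. WT 1 stood alone in its group, 2.26-fold above the lowest WT library, whereas the other 3 WT libraries lay within 1.09-fold. For Evpl the log2 fold change was 0.11 (95% interval -0.56 to 0.78, edgeR adjusted p = 0.903).

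The crosslinking enzyme gene Tgm1 (ENSMUSG00000022218) measured 8.37, 4.65, 2.82 and 1.90 CPM in WT and 4.34, 8.25, 7.62, 5.20 and 4.82 CPM in E-cad-KO. WT 3 and WT 4 were the 2 lowest libraries, and no E-cad-KO library fell as low. WT 1 was nevertheless the highest of all, and the log2 fold change of 0.44 did not pass the test (95% interval -0.45 to 1.34, edgeR adjusted p = 0.638). It ran from 0.19 without WT 4 to 0.95 without WT 1 (edgeR adjusted p = 0.183).

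Dsg1a (ENSMUSG00000069441, chr18:20310811-20343350, plus strand), the desmosomal cadherin gene, measured 30.1, 8.78, 7.71 and 0.529 CPM in WT and 1.81, 14.4, 12.1, 6.72 and 2.18 CPM in E-cad-KO. The 29 counts in WT 4 stood against 1773 in WT 1. That 56.9-fold range rests on the WT 4 library: without it the range over all libraries was 16.6-fold, and without both WT 1 and WT 4 it was 7.98-fold. The log2 fold change was -0.67 (95% interval -2.83 to 1.5, edgeR adjusted p = 0.791), and 0.39 without WT 1.

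Among the secreted products, Krtdap (ENSMUSG00000074199) had the widest range of the 9. It measured 123, 29.4, 20.3 and 1.62 CPM in WT and 8.32, 70.1, 51.4, 15.5 and 11.8 CPM in E-cad-KO. WT 1 was the highest and WT 4 the lowest of all 9 libraries, 75.5-fold apart. Without WT 4 the range was 14.7-fold, and without both it was 8.42-fold. Its log2 fold change was -0.47 (95% interval -2.79 to 1.85, edgeR adjusted p = 0.874), 0.88 without WT 1 and 0.34 without both.

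Sbsn (ENSMUSG00000046056) measured 73.3, 35.2, 26.8 and 23.8 CPM in WT and 22.5, 60.7, 53.1, 43.0 and 31.3 CPM in E-cad-KO. WT 1 and E-cad-KO 2 and 3 were highest, and E-cad-KO 1 was lowest, a 3.25-fold range. The log2 fold change was 0.08 (95% interval -0.81 to 0.97, edgeR adjusted p = 0.949).

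Lypd3 (ENSMUSG00000057454), on the cell surface, measured 59.7, 42.2, 28.8 and 17.0 CPM in WT and 32.8, 71.4, 62.7, 39.3 and 32.5 CPM in E-cad-KO. It was the only 1 of the 9 genes that was not highest in WT 1, with E-cad-KO 2 and E-cad-KO 3 above that library, and WT 4 was lowest. Leaving out a library moved its log2 fold change between 0.13 (without WT 4) and 0.70 (without WT 1), and it was 0.18 without E-cad-KO 2. A log2 fold change of 0.37 was estimated (95% interval -0.50 to 1.24, edgeR adjusted p = 0.695).

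Over the 9 genes, 5 fold changes were positive and 4 negative, with a median log2 fold change of 0.08, against -0.01 over all 17289 tested genes. The 95% intervals of 8 genes held 0. Those of Sprr1a, Sprr1b, Dsg1a and Krtdap took in changes of more than 2-fold in either direction, so changes of that size were not detectable between these groups. Leaving out a single library also turned the sign for Sprr1a (down to -0.23, without WT 2, WT 4 or E-cad-KO 2), Sbsn (down to -0.10, without WT 3, WT 4 or E-cad-KO 2 or 3) and Evpl (down to -0.018, without WT 3, WT 4 or E-cad-KO 3). The genes were picked for their spread, and that spread sets the width of the intervals.

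**Figure D2:**
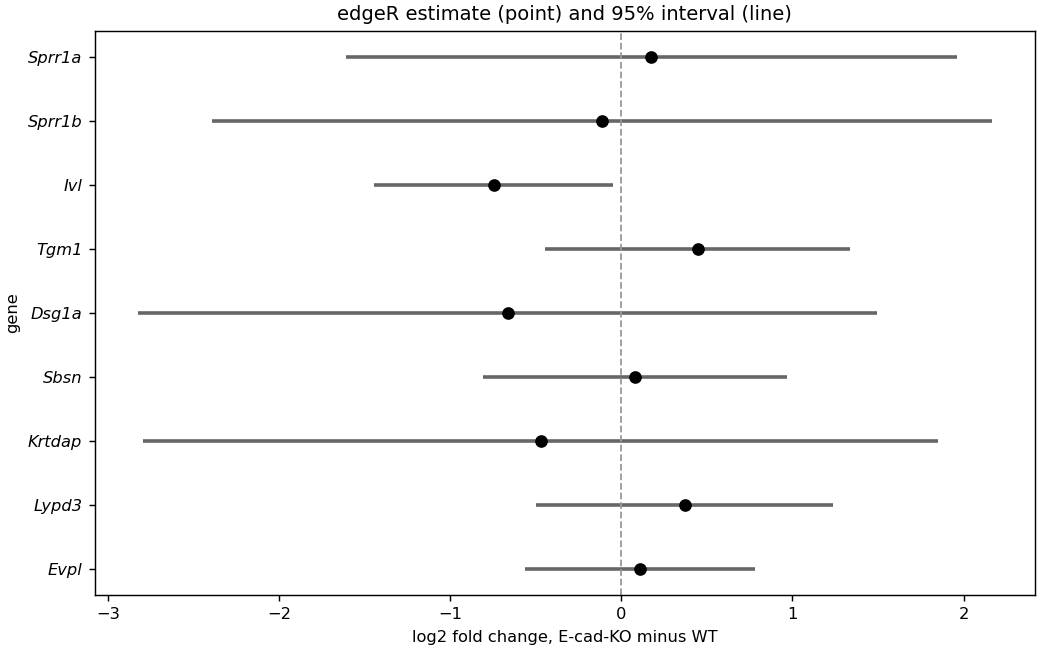
Log2 fold change of each gene, E-cad-KO minus WT, from edgeR (points) with 95% intervals (lines). The interval crosses 0 for every gene but Ivl, whose interval runs from -1.44 to -0.05, and it is widest for Krtdap and Sprr1b.

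The size of the spread separated the genes into those that varied over 10-fold and those that varied less. The highest library exceeded the lowest by 75.5-fold for Krtdap, 56.9-fold for Dsg1a, 22.7-fold for Sprr1b and 10.5-fold for Sprr1a. Ranges were 4.41-fold for Tgm1, 4.19-fold for Lypd3, 3.85-fold for Ivl, 3.25-fold for Sbsn and 2.31-fold for Evpl. Within the E-cad-KO group alone the range was 9.47-fold for Sprr1a, 13.5-fold for Sprr1b, 8.42-fold for Krtdap and 7.98-fold for Dsg1a, and 1.90-fold to 2.69-fold for the other 5. WT 2 and WT 3 lay within 1.09-fold to 2.06-fold of each other. Measured as the within-group SD of log2 CPM, the genes stood between the percentiles 80.6 (Ivl) and 99.9 (Krtdap) of all tested genes, which is the property they were chosen for. Among genes of like level, Ivl was at percentile 69.0 and the other 8 at 91.0 or higher.

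Levels between genes were compared per kilobase of exon. Mean CPM per kb over the 9 libraries was 54.2 for Krtdap, 35.7 for Sprr1a, 26.0 for Lypd3, 12.5 for Sprr1b, 11.3 for Sbsn, 2.06 for Evpl, 1.69 for Tgm1, 1.65 for Dsg1a and 0.730 for Ivl. Between neighbours in that order, only 2 steps held in 9 of 9 libraries, Lypd3 above Sprr1b and Sbsn above Evpl. The neighbours Sprr1a and Lypd3 (5 of 9 libraries), Sprr1b and Sbsn (4 of 9) and Tgm1 and Dsg1a (6 of 9) changed places between libraries. Levels per kb ran from 2.39 to 181 for Krtdap and from 0.372 to 1.43 for Ivl.

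The genes shared 1 pattern across libraries. Of the 36 pairs, none had a negative Pearson r of log2 CPM over the 9 libraries, the median r was 0.85 (0.08 to 0.97) and 23 exceeded 0.8. The median Spearman rho was 0.82, from -0.08 to 1.0. Among all 149376970 pairs of tested genes the median r was 0 and 1.77% exceeded 0.8. The 9 values behind each r share library preparation, depth and composition. The genes were also picked for their spread, so these shares describe and do not test.

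**Figure D3:**
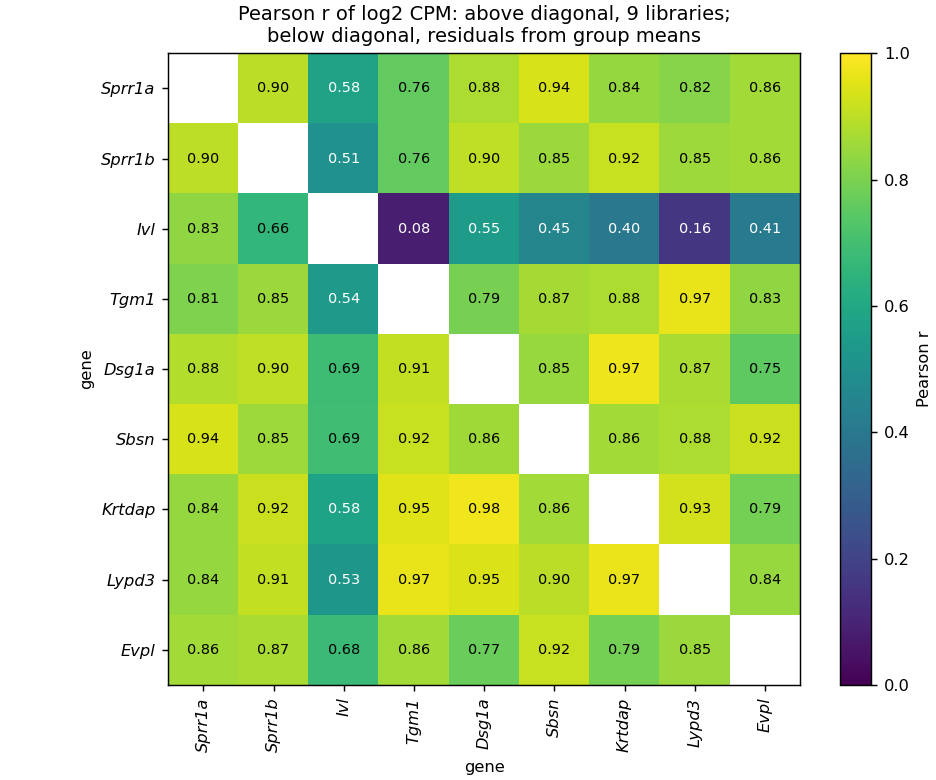
Pearson r between the log2 CPM of each pair of genes over the 9 libraries (above the diagonal) and of their residuals from the group means (below it). Dsg1a and Krtdap reach 0.97 above the diagonal, and Ivl has the lowest values, down to 0.08 with Tgm1.

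The closest pairs joined genes of different roles. Dsg1a and Krtdap, a desmosomal cadherin and a secreted protein on different chromosomes, had r = 0.97 and the same order of the 9 libraries (rho = 1.0). Tgm1 and Lypd3 had r = 0.97, and Sprr1a and Sbsn r = 0.94. Ivl stood apart, with a mean r of 0.39 with the other 8 genes, whose own mean r ran from 0.74 to 0.83. As residuals from the group means, the mean r of Ivl was 0.65, against 0.83 to 0.87 for the others.

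Covariation was present in each genotype taken alone. The median r of the 36 pairs was 0.88 among the 4 WT libraries, 0.93 among the 5 E-cad-KO libraries and 0.86 for residuals from the group means. Without WT 1 and WT 4, the 2 libraries at the ends, it was 0.78 (-0.31 to 0.94), and 2 pairs were then negative. A single component held 80.4% of the standardised variance of the 9 genes, and 85.7% of that of their residuals.

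**Figure D4:**
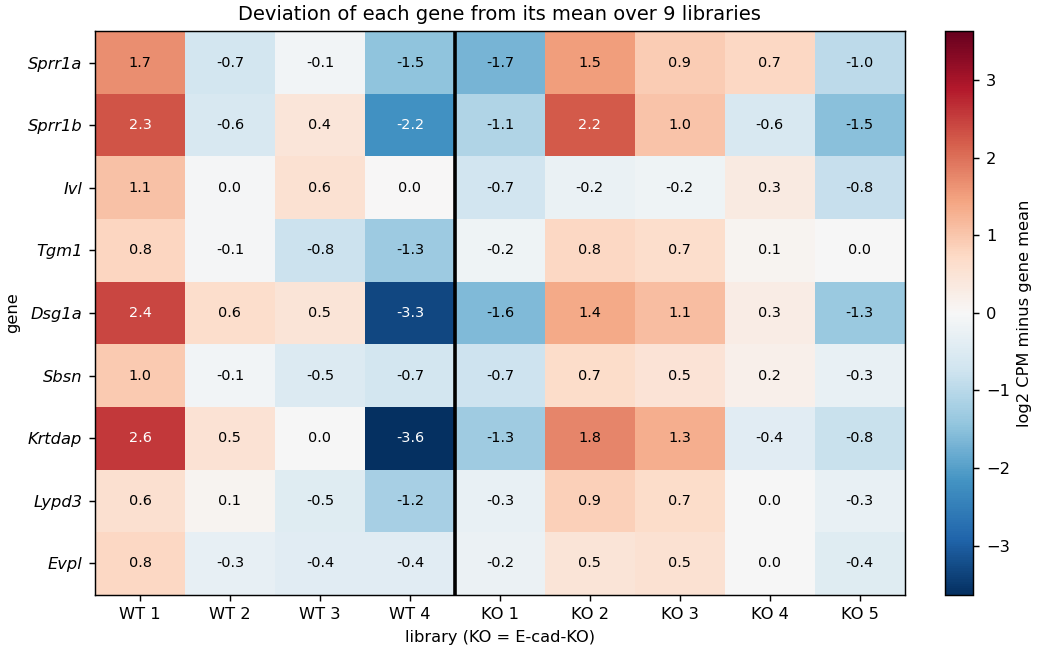
Log2 CPM of each gene in each library, minus the gene's mean over the 9 libraries (red above, blue below, the number in each cell on the log2 scale). The columns of WT 1, E-cad-KO 2 and E-cad-KO 3 are mostly above the mean and those of WT 4, E-cad-KO 1 and E-cad-KO 5 mostly below, with the strongest colours in Krtdap, Dsg1a and Sprr1b.

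The same pattern was also close to the leading component of the most variable genes. The first principal component of the 500 most variable genes held 63.3% of their variance, and its absolute r with the mean standardised pattern of the 9 genes was 0.94, against 0.08 for the second component. The overlap was partly direct, since 4 of the 9 genes were among those 500. The 9 were also chosen for strong variation between libraries, so a high r with this component follows in part from the choice. The summed CPM of the 9 genes was 415, 149, 126 and 64.5 in WT 1 to 4 and 90.5, 332, 258, 163 and 105 in E-cad-KO 1 to 5.

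Several neighbouring and partner genes had a high r with the 9. Dmkn, between Sbsn and Krtdap, had r = 0.90 with Sbsn and 0.97 with Krtdap. Dsg1b, which shares transcript sequence with Dsg1a, had r = 0.98 with it. Ppl, the gene of periplakin and partner of envoplakin, had r = 0.92 with Evpl (rho = 0.75). Tgm5, another epidermal transglutaminase, had r = 0.86 with Tgm1 but rho = 0.40. It measured 1.48 CPM in WT 3 and 0.986 CPM in WT 4, against 3.54 to 4.24 CPM in the other libraries. That likeness therefore rests on WT 3 and WT 4. Between Sprr1b and Ivl, 2310046K23Rik had r = 0.92 with the mean pattern of the 9 genes, whereas Ivl itself had 0.58 with Sprr1a and 0.51 with Sprr1b, and Sprr3 (0.0265 CPM) and Sprr4 (0.153 CPM on average) were too low to be tested.

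The 6 further lists of squamous genes held 178 genes, of which 141 passed the count filter. In edgeR's test 0 of the 141 were called between genotypes (background 1.41%), 18 had an unadjusted p under 0.05 (16.7% of all tested genes had), 76 fold changes were positive and 65 negative, and their median was 0.03. DESeq2 called 5 of the 112 listed genes to which it gave an adjusted p (4.46%, against 7.8% of all 14507 such genes), all higher in E-cad-KO: Vdr, Anxa1, Notch2, Emp1 and Krt80. limma-voom called Emp1 alone of the 141 (0.709%, against 2.96% of all genes). The groups did not overlap for 4 of the 141, Emp1, Notch2, Junb and Vdr, all with positive fold changes (8.11% of all tested genes did not overlap). Leaving out WT 1 gave 1 call, Emp1, higher in E-cad-KO, against 122 calls among all 17488 tested genes. Leaving out WT 4 gave 3, against 334 among all 17495. Of these 3, Fosl1 was higher (0.71), and Krt10 (-0.74) and Serpinb3b (-3.55) were lower in E-cad-KO. Serpinb3b was not among the 141.

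Across libraries, in contrast, most genes of these lists followed the 9. Other envelope genes had a median r of 0.76 with the mean pattern over 28 tested genes, and 12 exceeded 0.8. Over all 17276 tested genes outside the 9 for which r was computed, the median was -0.01 and 5.34% exceeded 0.8. The 6 most abundant envelope genes had r values of 0.50 (Anxa1, annexin A1), 0.83 (Cst6, the protease inhibitor cystatin M/E), 0.93 (Ppl), 0.84 (Crct1), 0.96 (Scel, sciellin) and 0.90 (Cnfn, cornifelin). The major late envelope protein gene Lor (loricrin) stayed at or below 0.565 CPM and Flg (filaggrin) at or below 0.391 CPM in every library.

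Of the 12 tested suprabasal keratins, 7 exceeded 0.8, with a median r of 0.86. Krt6a, a keratin of stressed and wound epidermis, ranged from 92.7 CPM in WT 4 to 1839 CPM in WT 1 and had r = 0.90. Its pairing partners Krt16 and Krt17 had r = 0.98 and 0.95, Krt6b 0.95, Krt79 0.83 and Krt80 0.59. The keratins of orthodox epidermal differentiation were far lower: Krt1 averaged 3.86 CPM and Krt10 4.58 CPM.

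All 15 desmosome genes passed the filter, with a median r of 0.91 and 10 above 0.8. Perp had r = 0.91, Dsp (desmoplakin) 0.92, Pkp1 (plakophilin 1) 0.90, Dsg3 0.93, Jup (plakoglobin) 0.79 and Dsg2, the desmoglein of simple epithelia, 0.70. Among 27 barrier lipid and protease genes the median was 0.91 and 20 exceeded 0.8. The kallikrein genes Klk10, Klk6 and Klk7 had r values of 0.91, 0.81 and 0.94, the kallikrein inhibitor gene Spink5 0.92 and the serpin gene Serpinb5 0.91. St14 (matriptase), which is broadly epithelial, was at 0.44.

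Of 30 secreted and surface genes, 18 exceeded 0.8 (median 0.84), with r values of 0.91 for Ly6d, 0.93 for Sfn (the 14-3-3 sigma gene), 0.86 for Crabp2, 0.81 for Fabp5, 0.43 for Plet1 and 0.36 for Emp1. The regulators of squamous differentiation had a median r of 0.79 over 29 genes, with 14 above 0.8. The transcription factor genes Ehf, Junb and Cebpb had r values of 0.85, 0.61 and 0.57, the receptor gene Notch1 0.68, and Vdr (vitamin D receptor) -0.36.

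**Figure D5:**
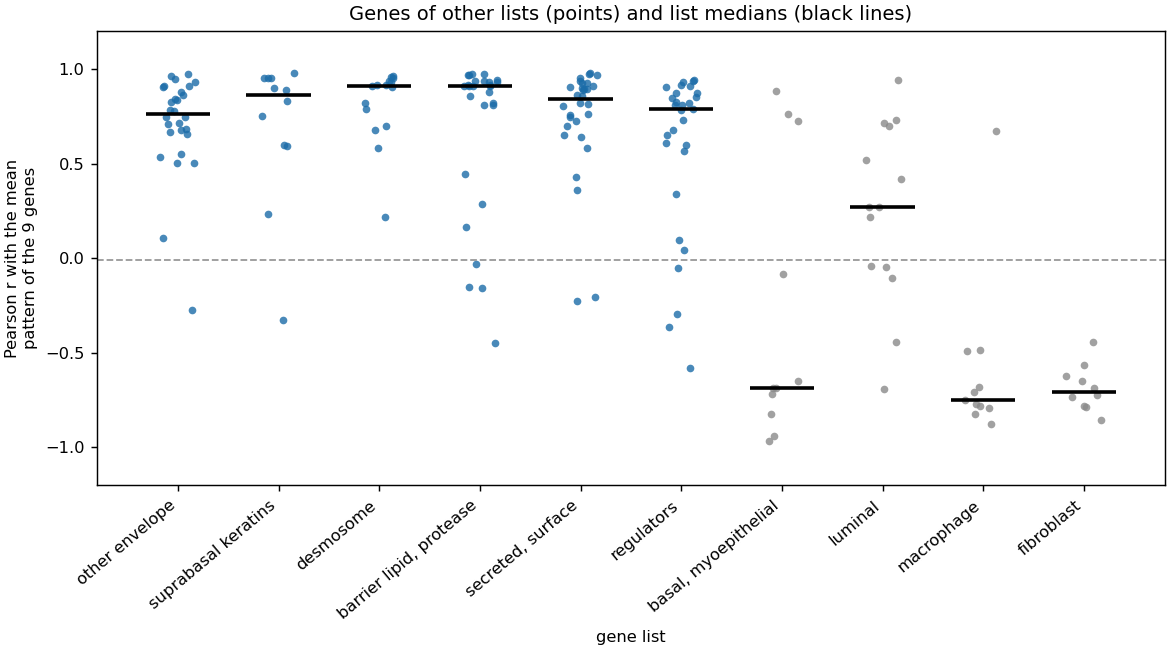
Pearson r of each tested gene with the mean pattern of the 9 squamous genes over the 9 libraries, by gene list (points), with list medians (black lines) and the median over all tested genes (dashed). Medians lie between 0.76 and 0.91 for the 6 squamous lists (blue) and between -0.69 and -0.75 for the basal and myoepithelial, macrophage and fibroblast lists (grey). The median of the luminal list (grey) is 0.27.

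The genes most like the 9 were found by the r of residuals from the group means over 9 libraries, among 11219 genes of at least 5 CPM. Of these, 467 (4.16%) exceeded 0.9. The 12 highest were Rpl17 (0.99), Ostf1, Il1f9, Rps15, Zbtb7a, Slc1a1, Rpl27a, Krt16, Tjp1, Ppl, Usf3 and Sars (0.98). Likeness of pattern was not likeness of size: Il1f9, an epithelial interleukin-1 family cytokine gene, ran from 0.913 CPM in WT 4 to 14.3 CPM in WT 1, whereas the ribosomal protein gene Rpl17 ran from 1022 to 1779 CPM. The likeness of Rpl17 was within groups, and over all 9 libraries its r was 0.71. The 5 most opposite genes were Nsmaf (-0.99), Bfar, Col9a3, Fzd9 and Mxd4 (-0.98).

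Markers of other cells moved with the pattern in part. The luminal list was split, with r from -0.69 to 0.94 over 14 genes, a median of 0.27 and 5 genes negative. Of the basal cell keratins, Krt14 had r = 0.88 and Krt5 0.76, whereas Krt15, at a mean of 3.62 CPM, had -0.82. The contractile myoepithelial genes went the other way, with r values of -0.97 for Cnn1, -0.94 for Mylk, -0.69 for Myh11 and -0.65 for Acta2. The fibroblast list was opposite in 10 of 10 genes (median -0.71) and the macrophage list in 10 of 11 (median -0.75), the exception being Cd14. Summed macrophage markers without Cd14 were 18.2, 40.1, 92.8 and 369 CPM in WT 1 to 4 and 50.8, 26.2, 32.5, 112 and 153 CPM in E-cad-KO 1 to 5, lowest where the squamous genes were highest and highest in WT 4. Summed over all genes, macrophage markers ranged from 379 to 536 CPM in WT and 346 to 411 in E-cad-KO. Fibroblast markers ranged from 990 to 2161 and from 1309 to 1793 CPM. Cd14 held 75.7% of the macrophage sum and Postn 88.7% of the fibroblast sum. Without Postn, fibroblast markers were 63.5, 121, 313 and 362 CPM in WT 1 to 4. In E-cad-KO 1 to 5 they were 166, 127, 219, 152 and 182 CPM. Their part in the squamous pattern was not tested.

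Skin and hair markers were low. Their 20 genes summed to between 8.47 and 12.2 CPM in WT and between 10.8 and 12.8 CPM in E-cad-KO. The sum was lowest in WT 1, where 8 of the squamous genes were highest. Padi3 alone averaged 7.10 CPM (r = -0.06 with the pattern), so the sum does not stand for the list as a whole. The hair keratin gene Krt35, the keratin-associated protein genes Krtap5-1 and Krtap9-3, the melanocyte gene Dct and the sebaceous gene Awat1 were at 0 in all libraries. Summed neutrophil markers were 482 CPM in WT 1 and between 80.8 and 200 CPM in the other 8 libraries. Ltf held 59.5% of that sum, and both Ltf (r = 0.83) and S100a9 (r = 0.97) followed the squamous pattern, whereas Camp (-0.67) and Mmp8 (-0.62) did not.

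Each of the 9 genes was set against 5 measures that did not choose them, 45 relations in all. Exact two-sided permutation tests over the 9 libraries were used, with Benjamini-Hochberg adjustment. The share of all tested genes that would pass with these measures was not computed. Because the 9 genes share 1 pattern, passes among them are not independent of each other. By Pearson r only Dsg1a and Krtdap passed, both with the summed basal and myoepithelial markers. That sum was 11440, 7976, 5365 and 2434 CPM in WT 1 to 4 and 3800, 6466, 7793, 3818 and 3506 CPM in E-cad-KO 1 to 5, of which Krt14 held 82.0%. Of the 11 genes in the list, 8 had a negative r with the mean pattern of the 9 (median -0.69). The sum therefore does not stand for the list as a whole. For Dsg1a r was 0.92 (exact permutation p = 0.000356, adjusted p = 0.00819) and rho 0.92 (exact permutation adjusted p = 0.0295). Krtdap had r = 0.93 (exact permutation p = 0.000364, adjusted p = 0.00819) and rho = 0.92 (exact permutation adjusted p = 0.0295). By rho, Sprr1b also passed (0.88, exact permutation adjusted p = 0.0461). Without WT 1 and WT 4, the 2 libraries farthest from the median of the sum, r was 0.81 for Dsg1a and 0.84 for Krtdap (exact permutation p = 0.0254, adjusted p = 0.554 for each). The calls, though not the sign or most of the size of r, rest on those libraries, and 0 of the 45 relations then passed.

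None of the 9 genes passed with the other 4 measures. Library totals had r between -0.19 and 0.22 with the 9 genes. With Cdh1 itself, r over all libraries ran from -0.18 (Tgm1) to 0.79 (Ivl, exact permutation adjusted p = 0.0574). Without WT 1 and WT 3, the 2 libraries farthest from the median of Cdh1, it ran from -0.51 to 0.43. Within the groups, as residuals from their means, all 9 genes had positive r with Cdh1, from 0.61 to 0.86. Sprr1b passed there (permutation adjusted p = 0.0260, not exact). Summed macrophage markers had r between -0.78 and -0.08, and fibroblast markers between -0.82 and -0.43. As residuals 13 of the 45 relations passed, 7 of them with the basal sum. Residuals of a group sum to 0 and cannot be exchanged freely between groups, so the permutation p-values of residuals are only approximate. With Cd14 and Postn taken out of the macrophage and fibroblast sums 10 passed, among them 5 with the macrophage sum, all negative. None passed with the fibroblast sum, whose r then ran from -0.77 to -0.30.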

How the data were processed

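RNA sequencing was deposited by the authors as 1 table of raw counts per gene, not normalised, for 4 WT and 5 E-cad-KO samples. Per the labels' protocols, whole gels were frozen, RNA was taken on RNeasy columns and libraries came from a stranded TruSeq mRNA kit. The tools were Bowtie2, TopHat2 and HTSeq and the build GRCm38, per the submitters' processing notes. Tool versions and the strand setting of counting were not given in the sources used here. Symbols, for 51633 of 51912 genes, came from the name table, and positions and lengths from GENCODE M21.

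The main test was edgeR 4.0.16 (R 4.3.3; quasi-likelihood F-test, robust, TMM, filterByExpr, group as the only term) with Benjamini-Hochberg adjustment over 17289 genes and a threshold of 0.05. It was tested on simulated data. CPM use TMM-scaled totals, log2 CPM a prior count of 2, and each gene's r is over 9 libraries. The mean pattern averages the standardised log2 CPM of the 9 genes. Depth ran from 44890302 to 64763645 counts. Libraries of a group differed by more than sampling noise (smallest chi-square per degree of freedom 13.8 within a group).

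The members and lists were chosen with earlier results of these data known. Named were the 9 genes, called genes and up to 6 most abundant of each squamous list, the 12 most alike and 5 most opposite genes, Cdh1, and markers of other cells. Of the genes so named, 1 is not reported here. Other genes (Krt1, Krt10, Lor, Flg, neighbours, partners, single markers and the calls of other settings) were named after their values were seen. Alternatives were other scalings, a filter of 1 count, DESeq2 1.42.0, limma-voom (limma 3.58.1), leaving out each library, a replicate block and, chosen after seeing the data, WT 1 and WT 4 left out together and marker sums without Cd14 and Postn.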

Additional observations from a re-analysis of the deposited data

Results flagged for a closer look

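Of 12 combinations of group and measure, the 9 squamous genes themselves not among them, 2 had a library far from the rest of its group by Dixon's criterion at the 95% level, which chance alone meets in about 1 of 20. Summed neutrophil markers were 482 CPM in WT 1 and 171 CPM in the next WT library, a gap of 0.844 of the group's range. Cdh1 was 118 CPM in E-cad-KO 2, and the next E-cad-KO library was at 87.3 CPM, a gap of 0.79 of the range. WT 1 was the highest library for 8 of the 9 squamous genes, and E-cad-KO 2 was among the highest 3 libraries for 8 of them.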

How the results depend on the processing

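The 9 squamous genes had 0 calls in edgeR and in all 16 alternatives. Their median pairwise r ran from 0.80 to 0.88 with a library left out and was 0.78 without WT 1 and WT 4. Leaving out a library, log2 fold changes ran from -0.23 to 1.18 for Sprr1a, -1.01 to 1.14 for Sprr1b, -1.06 to 0.39 for Dsg1a, -0.10 to 0.56 for Sbsn, -1.0 to 0.88 for Krtdap and -0.018 to 0.49 for Evpl, and, with no change of sign, -0.94 to -0.47 for Ivl (-0.47 without WT 1), 0.19 to 0.95 for Tgm1 and 0.13 to 0.70 for Lypd3. The sign of Dsg1a and Krtdap turned without WT 1, that of Sprr1b without WT 1 or E-cad-KO 1, 4 or 5, that of Sprr1a without WT 2, WT 4 or E-cad-KO 2, that of Sbsn without WT 3, WT 4 or E-cad-KO 2 or 3, and that of Evpl without WT 3, WT 4 or E-cad-KO 3. Leaving out WT 1 and WT 4 together, they were 0.70 for Sprr1b and 0.34 for Krtdap. The cause was not tested.

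Over all genes, 244 calls became 1132 with DESeq2, 511 with limma-voom, 79 without both WT 1 and WT 4, and 9 (without WT 3) to 334 (without WT 4) with a library left out. Of these, 122, 105, 29, 54, 28, 26 and 47 were without WT 1, WT 2 and E-cad-KO 1 to 5. Other squamous genes had 5 calls with DESeq2, 1 with limma-voom, 1 with the filter of 1 count and 0 to 3 with a library left out. The 2 relations of 45 became 0 without the 2 farthest libraries, 13 as residuals (with approximate p-values only) and 10 without Cd14 and Postn.

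No label says whether replicate numbers pair the samples. Deviations of same-numbered libraries had r of -0.32, 0.23, -0.03 and 0.28. The most alike E-cad-KO library was 2 for WT 1, 2 for WT 2, 1 for WT 3 and 5 for WT 4. These values cannot settle whether samples were paired, since a pair need not share its deviations. With the replicate block 0 genes were called over all genes (2418 at an unadjusted p under 0.05), and log2 fold changes were 0.65 for Sprr1b, 0.41 for Dsg1a and 0.80 for Krtdap. Among the 9 genes counts were lowest for Dsg1a in WT 4, at 29, and for Ivl, at 45 to 162.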
